A study of Mus musculus with 12 samples.

Results

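STAT5 regions around 6 immediate early genes, Fos, Jun, Junb, Fosl2, Egr1 and Myc, were described in mouse embryonic fibroblasts given growth hormone. A region was assigned to a gene when its centre lay in a fixed window of build mm9. The windows were chr12 86.76 to 86.87 Mb for Fos, chr4 94.66 to 94.77 Mb for Jun, chr8 87.45 to 87.55 Mb for Junb, chr5 32.39 to 32.51 Mb for Fosl2, chr18 34.97 to 35.07 Mb for Egr1 and chr15 61.75 to 62.05 Mb for Myc. They are 100 to 300 kb long, 840 kb in all. The rule gives positions only, but the genes and windows had been listed with earlier results of these data known. They held 216 of the 156642 regions in the 3 lists analysed, namely 12 of 13278 from wild type, 100 of 71561 from overexpression replicate 1 and 104 of 71803 from overexpression replicate 2.

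Immediate early genes are transcribed within minutes of a growth factor or hormone signal, from factors that are already in the cell. Fos and Fosl2 encode proteins that pair with the proteins of Jun and Junb to form the transcription factor AP-1, Egr1 encodes a zinc finger transcription factor, and Myc encodes a basic helix-loop-helix factor that drives cell growth. Growth hormone binds a receptor that activates the kinase JAK2, which phosphorylates STAT5A and STAT5B. The phosphorylated proteins pair, enter the nucleus and bind DNA at the sequence TTCNNNGAA.

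The fibroblasts came from C57BL/6 fetuses of day 12.5-13.5 and were used at passage 9-10. Wild-type cells carried intact Stat5, and the overexpressing cells lacked Stat5 (Stat5-/-) and carried STAT5A in its place. How STAT5A was introduced, and whether the line was 1 clone, is not given in the sources used here. Cells were kept without serum for 5 h and then received growth hormone at 1 µg/ml for 45 min, and chromatin was precipitated with an antibody to STAT5. The labels attach the replicate 2 list both to the stimulated repeat library and to its unstimulated counterpart. It was assigned to the stimulated one because the list is named for growth hormone, and what part the unstimulated library had in it is not given in the sources used here. There was 1 wild-type list and 1 list for each of 2 overexpression libraries, the second labelled a repeat, and nothing says whether it came from a separate culture. The series has 12 libraries, and the other 9, which include IgG controls, unstimulated cells and Stat5-null cells, were not analysed here, so no background in cells without STAT5 stands beside the values. Each list gives positions without a height, score or read count, and the depth of the libraries is unknown. The lists hold no expression values, so the cell type could not be checked against its markers. With 1 wild-type library, no difference between genotypes could be tested, and the values below are descriptions. Intervals are 95% exact (Poisson for numbers, Clopper-Pearson for shares) and cover counting error only.

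The promoters of 4 of the genes are in the RefSeq table of build GRCm38.p6, namely Fos, Jun, Junb and Fosl2, as 250 bases before and 50 after the annotated start. None of the 4 held the STAT sequence TTCNNNGAA on either strand, which 9.55% of the 27025 genes in the table did. The sequences of Fos, Jun and Junb are shown because these genes differ in the elements around their starts. Capitals mark TGACG and TGACNTCA, forms of the element that CREB and AP-1 proteins bind (either strand). They also mark TATAAA, a sequence of the TATA box (transcribed strand only). These motifs were chosen after the sequences had been seen.
Fos, chr12:85473640-85473939, plus strand: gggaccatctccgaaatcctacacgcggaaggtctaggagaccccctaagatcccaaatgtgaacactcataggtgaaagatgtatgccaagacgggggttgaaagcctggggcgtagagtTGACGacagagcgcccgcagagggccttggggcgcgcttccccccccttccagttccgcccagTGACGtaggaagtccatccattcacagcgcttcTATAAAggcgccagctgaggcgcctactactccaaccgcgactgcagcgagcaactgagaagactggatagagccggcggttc
Jun, chr4:95052173-95052472, minus strand: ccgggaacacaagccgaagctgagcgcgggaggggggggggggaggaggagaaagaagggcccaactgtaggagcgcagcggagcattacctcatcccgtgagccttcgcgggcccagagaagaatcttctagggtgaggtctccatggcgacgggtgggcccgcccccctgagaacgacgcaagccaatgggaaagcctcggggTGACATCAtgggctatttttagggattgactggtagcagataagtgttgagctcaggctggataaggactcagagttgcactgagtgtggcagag
Junb, chr8:84978699-84978998, minus strand: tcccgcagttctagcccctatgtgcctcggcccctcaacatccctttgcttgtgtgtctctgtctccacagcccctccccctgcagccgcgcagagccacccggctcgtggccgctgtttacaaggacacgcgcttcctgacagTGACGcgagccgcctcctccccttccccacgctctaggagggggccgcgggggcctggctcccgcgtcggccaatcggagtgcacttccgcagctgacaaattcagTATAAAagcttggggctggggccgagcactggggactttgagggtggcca
Fos held TGACG starting 129 and 66 bases before the start and TATAAA starting 33 bases before it. Jun held TGACATCA starting 45 bases before the start, and Junb held TGACG starting 106 bases before it and TATAAA at position 1. The Junb TATAAA thus begins at the annotated start and not before it, so whether it serves as a TATA box is not shown. TGACG was present in 23% of genes in the table, TGACNTCA in 10.0% and TATAAA in 9.77%. These positions are on GRCm38.p6 and cannot be set against the mm9 regions, so whether a region covers a promoter was not analysed here.

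All 6 windows held STAT5 regions in both overexpression replicates, and 4 of the 6 held any in wild-type cells. Across the genome, the share of autosomal windows with a wild-type region was 35.6% at 100 kb, 38.1% at 110 kb, 40.4% at 120 kb and 66.8% at 300 kb, the lengths of the gene windows. For a region in both overexpression replicates the shares were 55.3%, 57.2%, 58.8% and 73.2%. With only 6 windows, presence alone was not read as a result. The presence of wild-type regions at Fos and Jun also depended on the definition: Fos had none in the central 50% of its window, and Jun had none among regions at least as wide as the median of the wild-type list. Their density in the overexpressing cells was 11.9 regions per 100 kb in replicate 1 and 12.4 in replicate 2, and the wild-type density was 1.43. Every window exceeded the 90th percentile of autosomal windows of its length in both replicates. Because the windows had been listed with earlier results of these data known, this was not read as a test. Replicate 1 regions covered 5.12% of the 840 kb, replicate 2 regions 6.77% and wild-type regions 0.537%. Replicate 1 had 8.33 times as many regions here as wild type (interval 4.57 to 16.7) and replicate 2 had 8.67 times (4.76 to 17.3). Over the whole lists the ratios were 5.39 and 5.41, inside both intervals, so an excess over the genome's ratio was not detectable with 12 wild-type regions.

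**Figure D1:**
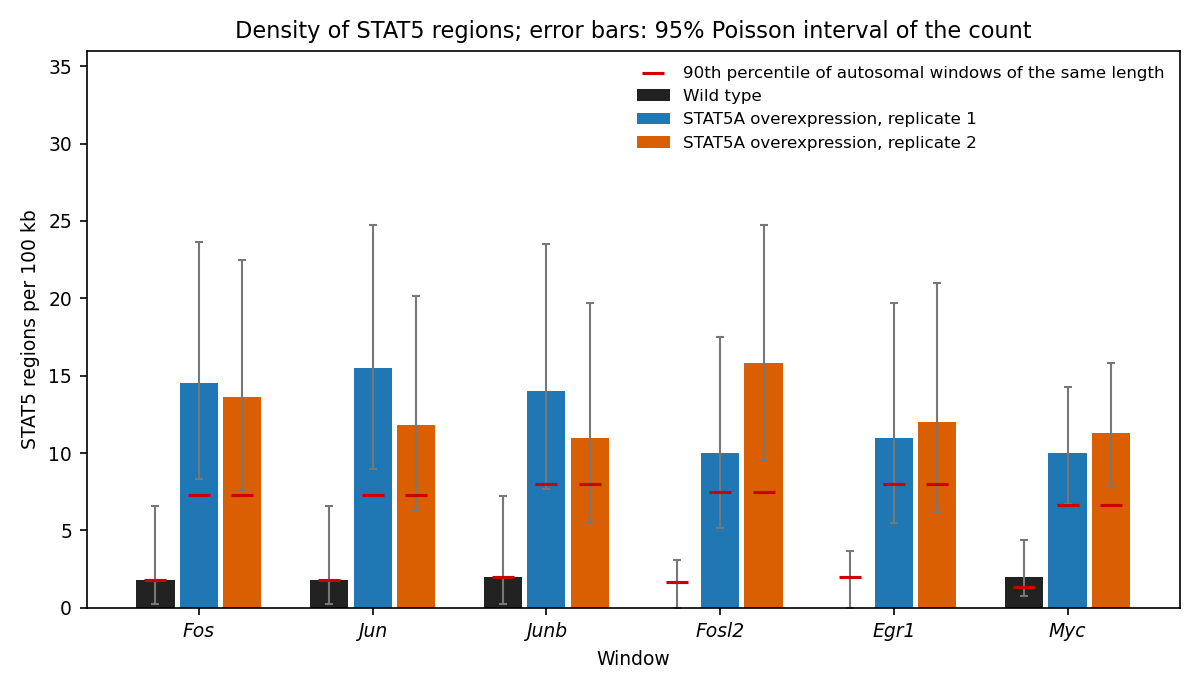
STAT5 regions per 100 kb (y axis) in each gene window (x axis) for wild type and each overexpression replicate, with the 95% Poisson interval of the count as error bar and a red dash at the 90th percentile of autosomal windows of the same length. Both overexpression bars stand above the dash in all 6 windows, and wild type has no region at Fosl2 or Egr1.

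Fos, the partner of Jun in the classical AP-1 dimer, had 2 wild-type regions in its 110 kb window, with 16 in replicate 1 and 15 in replicate 2. Of all autosomal windows of that length, 13.2% held at least 2 wild-type regions, 1.45% at least 16 in replicate 1 and 1.30% at least 15 in replicate 2. The regions lay mostly on 1 side of the centre. From 20 kb before the centre up to the centre, replicate 1 had 10 of its 16 regions and replicate 2 had 9 of its 15. The widest region of replicate 2 was chr12:86812456-86813733, at 1278 bp, 1.9 kb before the centre. Replicate 1 had 2 regions in its place, which together covered 1217 bp. One of them, chr12:86812593-86813341, shared the largest width of replicate 1 in this window, 749 bp, with chr12:86795893-86796641. A replicate 2 region of 1112 bp at chr12:86826936-86828047 and one of 948 bp at chr12:86814304-86815251 had no counterpart in replicate 1. Both wild-type regions lay far from the centre. The first, chr12:86775053-86775440 (388 bp), overlapped neither overexpression list. The second, chr12:86868263-86868480 (218 bp), was in both, where the regions were 528 and 729 bp wide.

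Fosl2, which encodes the Fos-related protein Fra-2, had no wild-type region in its 120 kb window (interval 0 to 3.69), 12 regions in replicate 1 and 19 in replicate 2. The nearest wild-type regions lay 104 kb before and 45.8 kb beyond the window. A window with regions in both overexpression replicates and none in wild type made up 27.5% of autosomal windows of 120 kb. Of all autosomal windows of 120 kb, 82 were at least as dense as Fosl2 in both replicates. The median of these 82 was 2 wild-type regions, and 6 of them (7.32%) had none. The numbers of the replicates lay further apart here than at the other 5 genes, although their intervals (6.20 to 21.0 and 11.4 to 29.7) overlapped. Of autosomal windows, 5.67% held at least 12 regions in replicate 1 and 0.423% at least 19 in replicate 2. The widest replicate 2 region, chr5:32437332-32439116, was 1785 bp wide and ranked 74th by width in its list. Replicate 1 had only a 308 bp region at its edge. The widest of replicate 1 was chr5:32498173-32498910 (738 bp), overlapped by a replicate 2 region of 715 bp.

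Jun, whose protein can pair with itself or with Fos proteins, had 2 wild-type regions in 110 kb, with 17 in replicate 1 and 13 in replicate 2. The shares of windows with at least as many were 13.2%, 1.1% and 2.65%. The widest region of both replicates was at the same place, 4.5 to 4.8 kb beyond the centre: chr4:94719323-94720321 (999 bp) in replicate 1 and chr4:94718680-94720323 (1644 bp) in replicate 2. In replicate 1, 0.664% of the list was at least as wide, and in replicate 2 0.191%. No wild-type region lay there, its nearest being 17.1 kb from the centre of the replicate 2 region. The wild-type region chr4:94702223-94702500 (278 bp) was in both overexpression lists, with widths of 648 and 521 bp, and chr4:94666973-94667240 (268 bp) was in replicate 2 alone.

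Junb, the other Jun family member, had 2 wild-type regions in 100 kb, with 14 in replicate 1 and 11 in replicate 2, numbers reached by 11.7%, 1.96% and 3.85% of autosomal windows. Both of its wild-type regions were present in both overexpression replicates, which held for no other of the 6 genes. The first, chr8:87489663-87490380, was 718 bp wide, a width that 0.836% of the wild-type list reached. In replicate 1 it was overlapped by 2 of 3 abutting regions that together covered 1036 bp, and in replicate 2 by 1 region of 941 bp. The second, chr8:87500293-87500680 (388 bp), lay 0.5 kb from the centre, inside the widest region of each replicate, chr8:87499873-87500801 (929 bp) and chr8:87499927-87500942 (1016 bp). Regions were packed around the centre. Within 10 kb of it were both wild-type regions, 9 of 14 in replicate 1 and 7 of 11 in replicate 2.

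Egr1, the zinc finger factor gene, had no wild-type region in its 100 kb window (interval 0 to 3.69), 11 regions in replicate 1 and 12 in replicate 2. At least as many were held by 4.72% and 2.72% of windows. The nearest wild-type regions lay 30.7 kb before and 25.2 kb beyond the window. Windows with regions in both overexpression replicates and none in wild type made up 28.6% at 100 kb. Of all autosomal windows of that length, 429 were at least as dense as Egr1 in both replicates, and 86 of these (20%) had none in wild type. At the centre of the window lay the widest region found at any of the 6 genes, chr18:35019038-35021313 in replicate 2, 2276 bp wide and 14th of 71803 by width. Replicate 1 had 4 regions of 299 to 588 bp across it, which together covered 1675 bp. A second pair of wide replicate 2 regions, 1040 and 881 bp, lay 4.9 and 5.9 kb beyond the centre and was also found in replicate 1, whose widest region here was chr18:35025733-35026331 (599 bp). Of the 4 sites found in both replicates at Egr1, 3 lay within 6 kb of the centre.

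Myc had 6 wild-type regions in its window of 300 kb, the longest, with 30 in replicate 1 and 34 in replicate 2. At least as many were held by 3.76%, 2.61% and 0.802% of windows of that length. Per 100 kb these were 2, 10 and 11.3 regions. In the overexpressing cells the regions were unevenly spread. The first 60 kb of the window held none in either replicate. From 90 to 70 kb before the centre there were 7 in replicate 1 and 3 in replicate 2, from 50 to 80 kb beyond it 8 in each, and from 110 to 130 kb beyond it 7 and 6. The 120 kb from 70 kb before the centre to 50 kb beyond it, 40% of the window, held 6 of 30 regions in replicate 1 (20%) and 13 of 34 in replicate 2 (38.2%). From 80 to 110 kb beyond the centre there were 0 and 1, and in the last 20 kb 2 and 3. The stretch from 50 to 80 kb held the wild-type regions chr15:61955303-61955720 (418 bp) and chr15:61960413-61960710 (298 bp), both present in all lists. At the second of these the overexpression regions were 768 bp, the widest of replicate 1 at this gene, and 949 bp. The widest of replicate 2, chr15:61815784-61816798 (1015 bp), lay 83.7 kb before the centre and overlapped a 458 bp region of replicate 1. The widest wild-type regions, chr15:62038103-62038710 (608 bp) and chr15:61906768-61907323 (556 bp), overlapped neither overexpression list. The remaining wild-type regions were narrow: 199 bp at chr15:61870763-61870961, overlapped in replicate 2 alone, and 178 bp at chr15:61756283-61756460, overlapped in neither.

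**Figure D2:**
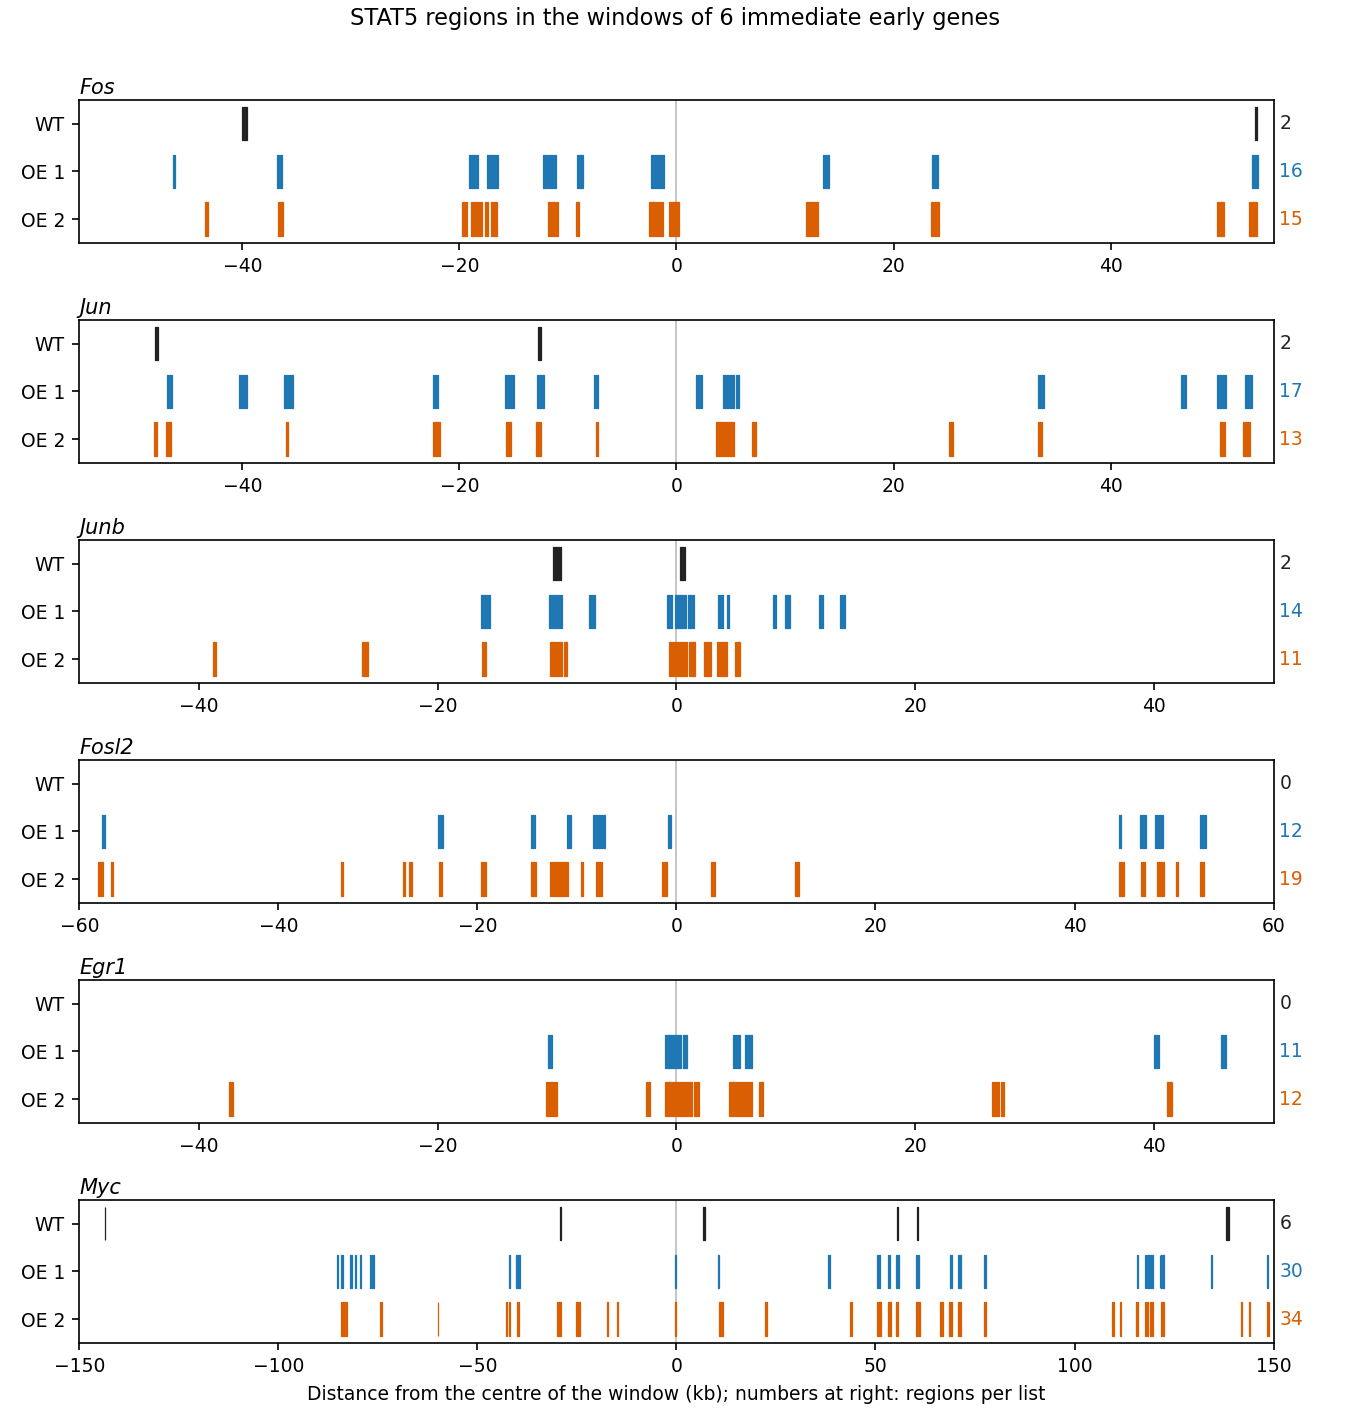
Positions of STAT5 regions in each gene window, with the distance from the window's centre in kb on the x axis, 1 row of bars per list (WT, wild type, and OE 1 and OE 2, the overexpression replicates) and bars drawn to the width of the regions with a thin outline. At Junb and Egr1 the overexpression bars gather around 0, and at Myc there are none in the first 60 kb, while between -70 and 50 kb replicate 2 has 13 and replicate 1 has 6.

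Position within the windows was compared over the 5 shorter ones, 540 kb in all. Within 10 kb of a centre, which is 18.5% of that length, lay 27 of 70 regions in replicate 1 (38.6%), 23 of 70 in replicate 2 (32.9%) and 2 of 6 in wild type. Of the 27, 9 were at Junb and 7 at Egr1, and of the 23, 7 and 6. Where each gene lies in its mm9 window was not analysed here, so distance from a centre is not distance from a gene. In the GRCm38.p6 gene table, a stretch as long as the window and centred on the gene held no other protein-coding gene at Fos, Jun, Fosl2 and Myc, 8 at Junb and 3 at Egr1. These stretches are on another build than the regions, so genes near the regions themselves were not counted. Summed over the 6 genes, stretches of the same length on either side of the windows held fewer regions. Replicate 1 had 100 regions in the windows, 65 in the stretches before them and 66 in those after, and replicate 2 had 104, 55 and 59. For wild type the numbers were 12, 8 and 11. By gene, every window held more than either stretch in both overexpression replicates, but this was not so in wild type. Wild type had 1 region before and 3 after the Fosl2 window, and 1 on each side of Egr1, with none inside. Some overexpression margins were small. At Myc replicate 1 had 30 regions inside, 26 before and 29 after, and at Junb replicate 2 had 11, 10 and 7. The windows had been listed with earlier results of these data known, so their contrast with the stretches was not read as a test. How close regions came to the edges of a window differed between genes. The outermost replicate 1 regions inside the Fosl2 window were 2.45 and 7.06 kb from its edges and the nearest outside were 2.78 and 2.07 kb away. At Junb the outermost replicate 1 regions were 34 and 36.1 kb inside the edges and the nearest outside were 68.7 and 9.68 kb away.

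Sites were then defined by merging overlapping regions of any list inside the windows. There were 139 sites, of which 6 were in all lists, 49 in both overexpression replicates without a wild-type region, 31 in replicate 1 alone, 47 in replicate 2 alone, 2 in wild type and replicate 2, and 4 in wild type alone. Of the 135 sites with an overexpression region, 55 were in both replicates (40.7%, interval 32.4 to 49.5%), and the share over the whole lists, 28.8%, lay below that interval. The share ran from 26.7% at Egr1 (4 of 15) to 50% at Jun (10 of 20), and the intervals of these 2 genes overlapped. Counted by regions, 69 of 100 in replicate 1 overlapped replicate 2 (69.0%, interval 59.0 to 77.9%), where the whole list gave 51.9%, again below the interval. In the other direction 55 of 104 did (52.9%, interval 42.8 to 62.8%), where the whole list gave 43.1%, inside the interval. These intervals treat neighbouring regions as independent, although the 69 regions of replicate 1 met only 55 of replicate 2. Regions were also dense here, with replicate 2 covering 6.77% of the windows. How much of the overlap goes with that density was not tested. Replicated regions were the wider ones, as in the whole lists. Their median width was 439 bp in replicate 1, against 289 bp for the others, and 590 against 385 bp in replicate 2. Over the whole lists the medians were 458 against 348 bp in replicate 1 and 468 against 329 bp in replicate 2. A wider region meets another more easily under the overlap rule, and how much of the difference goes with that was not tested.

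**Figure D3:**
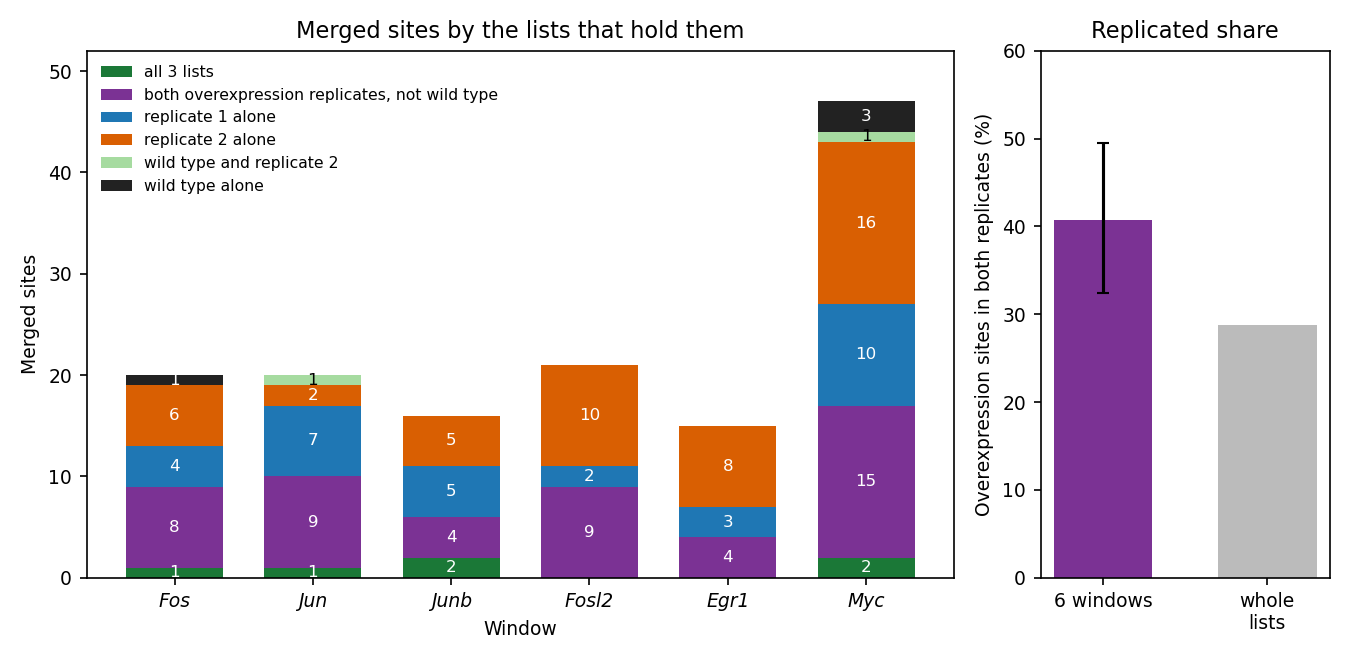
Number of merged sites per gene window by the lists that hold them (left) and percent of overexpression sites found in both replicates in the 6 windows, with its 95% Clopper-Pearson interval, and over the whole lists (right). Sites in both replicates were present in every window, and green sites, in all 3 lists, only at Fos, Jun, Junb and Myc.

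Of the 12 wild-type regions, 6 were overlapped in replicate 1 (50%, interval 21.1 to 78.9%, with 32.3% over the whole wild-type list, inside it) and 8 in replicate 2 (66.7%, interval 34.9 to 90.1%, with 29.9%, below that interval). In both replicates there were 6 (interval 21.1 to 78.9%), where the whole list gave 23.3%, and in at least 1 there were 8 (66.7%, interval 34.9 to 90.1%), where it gave 38.9%. These last list values lie inside the intervals. When an overlap had to cover 50% of both regions, the 66.7% in at least 1 list became 25%, with 25.4% over the whole list. In the 6 regions common to all lists, the wild-type summit lay 5 to 125 bp from the nearest replicate 1 summit, closest at Myc (5 bp) and Junb (20 and 50 bp). Seen from the overexpressing cells, 7 of 100 regions in replicate 1 (7%) and 8 of 104 in replicate 2 (7.69%) overlapped wild type, against 6.55% and 5.25% of the lists. Of the 55 sites in both replicates, 10.9% were also in wild type, and 9.84% were over the whole lists.

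Widths differed between the lists. The median was 343 bp in wild type (interval 218 to 556 bp, whole list 379 bp), 388.5 bp in replicate 1 (368 to 439 bp, whole list 398 bp) and 451.5 bp in replicate 2 (409 to 544 bp, whole list 378 bp). Of the replicate 2 regions, 20 of 104 (19.2%) reached the 90th percentile of their list, 718 bp, and 12 of 100 (12.0%) in replicate 1 reached theirs, 668 bp. The widest region of each window was wider in replicate 2 in all 6 windows, 1015 to 2276 bp against 599 to 999 bp. The lists also differed in form, and a caller is named for replicate 2 only. What part this had in the widths was not tested, and it cannot be told apart from a difference between the libraries. In replicate 1, 17 of 94 gaps between neighbouring regions in the windows were under 20 bp, and in replicate 2 none of 98 were. Over the whole lists the shares were 18% and 0.205%, so this is a trait of the lists and not of the windows. With regions less than 500 bp apart joined in each list, replicate 1 had 70 with a median of 528 bp and replicate 2 had 88 with a median of 536.5 bp, so the medians lay closer together than before joining. The widest replicate 2 regions at Egr1 and Fos were overlapped by 4 and 2 regions of replicate 1. Those at Jun, Junb, Fosl2 and Myc were each overlapped by only 1. Gaps under 2 kb made up 51.1% of gaps in the windows for replicate 1 (33.5% in its whole list) and 43.9% for replicate 2 (18.9%). In wild type none of the 8 gaps were under 2 kb, with 5.91% in its whole list. So few gaps cannot show a difference from that list.

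**Figure D4:**
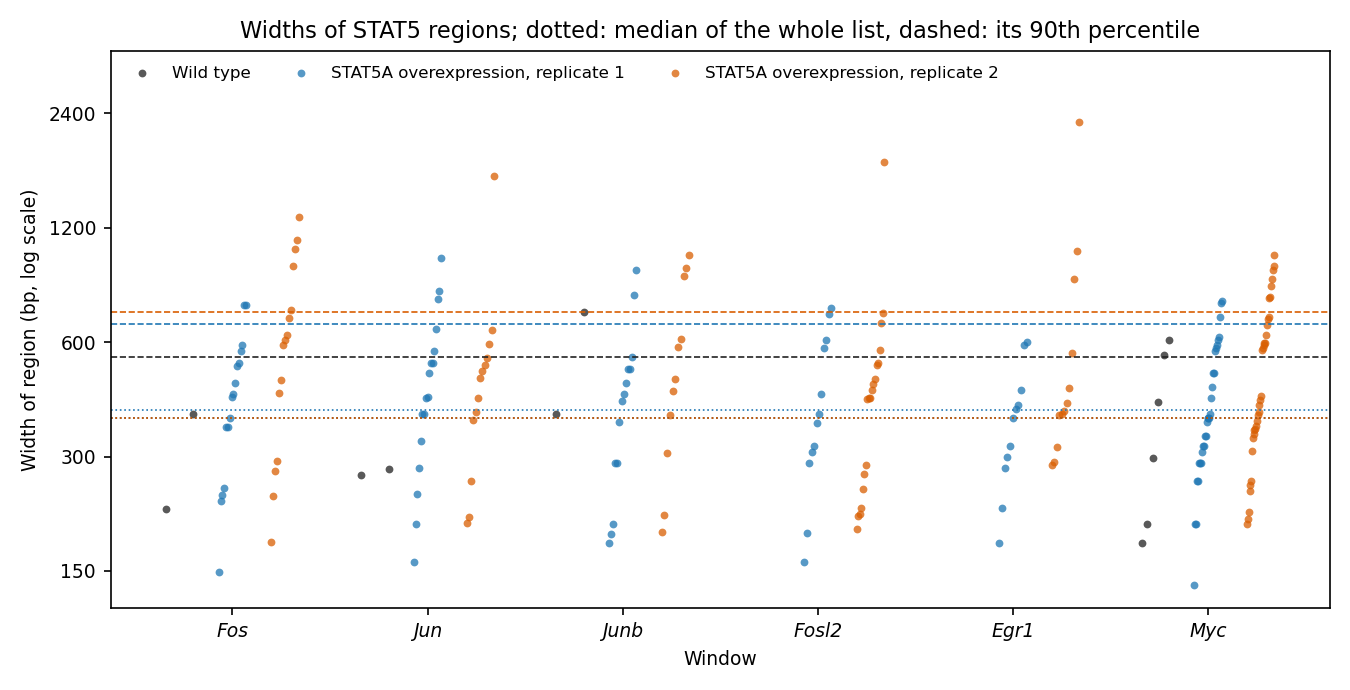
Width of each STAT5 region in bp (log scale) by gene window, 1 point per region, with the median (dotted) and 90th percentile (dashed) of each whole list in the colour of the list; the wild-type and replicate 2 medians, 379 and 378 bp, coincide. The widest points, at Egr1, Fosl2 and Jun, are all of replicate 2.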

How the data were processed

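Called STAT5 regions were taken from the authors' deposited lists, 1 for stimulated wild-type cells and 2 for overexpressing cells, as positions on mm9. Per the file headers, every list has a start and an end and 2 lists a summit, and none has a score. The replicate 2 regions carry MACS in their names. For the remaining lists no caller is named, and neither aligner nor threshold is given in the sources used here. Labels tie the replicate 2 list to STAT5 libraries with and without stimulation, and to no IgG library. It was assigned to the stimulated library from the name of the list.

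Positions were read as BED intervals and are printed counted from 1. Regions that overlapped by 1 bp or more were called shared. Genome values come from all consecutive windows of equal length on the 19 autosomes. The genes and windows had been listed with earlier results of these data known. By a fixed rule, the regions named were those of wild type (at Myc the 3 widest), the widest overexpression region per window and the sites in all lists. Further regions were named after their values were seen. Overlap functions were checked on planted regions and against bedtools (2.31.1). The work used Python (3.11.15) with scipy 1.17.1, pandas 2.3.3 and numpy 2.4.6, and figures were drawn with matplotlib 3.10.9.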

Additional observations from a re-analysis of the deposited data

How the results depend on the processing

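Of the alternative values for the totals, shares and medians, 71 stayed within 1.5 times (numbers) or within the interval (shares and medians) and 19 moved. The 71 include values that could not move, as a changed overlap rule leaves the numbers and widths of regions as they were. Under those rules the sites in both replicates were counted as replicate 1 regions with a partner (43 and 50). They were set against 55 merged sites, another measure, where the main count of such regions was 69. None has a test whose call could be lost. With the central 50% of each window, the 12, 100 and 104 regions became 7, 62 and 67 and the sites in both replicates 35. With the central 100 kb, wild-type regions were 7, sites in both replicates 36 and sites in all lists 3. These settings search less sequence. When an overlap had to cover 50% of both regions, 25% of wild-type regions met an overexpression region (25.4% over the whole list), 43% of replicate 1 met replicate 2 (32.7%), 41.3% of replicate 2 met replicate 1 (32.6%), and 2 wild-type regions were in all lists. With centres within 200 bp, replicate 1 in replicate 2 was 50% (39.1% over the whole list). Joining regions less than 500 bp apart gave a median width of 528 bp in replicate 1 and 536.5 bp in replicate 2. Keeping regions at least as wide as the median of their list left 6 in wild type and 49 in replicate 1, medians of 568 and 589 bp in the replicates, 79.6% of replicate 1 in replicate 2 (49% over the whole list) and 3 sites in all lists. Leaving out replicate 1 or replicate 2 gave 50 to 66.7% for the wild-type share. Without a replicate, the shares and sites between replicates have no value. Of the alternative values for single windows, 118 stayed within these limits and 26 moved. The 118 also include the values under a changed overlap rule, which could not move. The 2 wild-type regions at Fos became 0 with the central 50%, and the 2 at Jun became 0 with the width minimum, so the number of windows with a wild-type region depends on these settings. Joining took replicate 1 from 16 to 10 regions at Fos, from 14 to 9 at Junb and from 11 to 5 at Egr1. Egr1 and Fosl2 had no wild-type region under any setting, but this could not have come out otherwise. No setting searched far enough outside the windows to reach the nearest ones, 25.2 kb from the Egr1 window and 45.8 kb from the Fosl2 window. No paired analysis was possible because the groups compared, with 1 and 2 lists, share fewer than 2 replicate numbers. The unknown depth of the libraries limits how far their numbers of regions can be compared.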

Other observations

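Promoters of 19 other immediate early genes were searched in the RefSeq table of GRCm38.p6, in which 14 had an entry. TTCNNNGAA was found in 1 of the 14, Zfp36, which encodes a protein that destabilises messenger RNA. TGACG was found in 9, among them Fosb, Atf3 and Dusp1, and TGACNTCA in 3, Btg2, Dusp1 and Klf6. TATAAA was in none of the 14, and 9.77% of all genes in the table held it. TGACG, TGACNTCA and TATAAA were chosen after the sequences of Fos, Jun and Junb had been seen. No difference between the sets of genes is therefore read from these motifs. The mm9 positions of these genes were not at hand, so their STAT5 regions were not analysed here.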
